A study of Homo sapiens with 6 samples.

Results

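The METTL14 window on chromosome 4 and the PGK1 window on chromosome X were examined in an anti-HA ChIP-seq study of tagged METTL14. The members were all candidate islands, runs of read-enriched sequence called by SICER, that overlapped chr4:119600000-119640000 (METTL14) or chrX:77355000-77385000 (PGK1) on hg19. There were 17 such islands of 106498 in the deposited tables, 8 of 38696 in untreated cells and 9 of 67802 in cells given DRB. The windows were selected on the immunoprecipitation (IP) and input reads of these same tables, in which they stood out, so every read count, density and fold below is a description and no test is given.

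The cells were HepG2, a human hepatocellular carcinoma line. Per the labels' protocols they had been transduced with a PLJM1 lentiviral vector holding a METTL14 cDNA with an HA tag at the N-terminal end and EGFP at the C-terminal end, kept under puromycin, and sorted for high GFP. The untreated group had 2 anti-HA IP libraries and 2 input libraries without antibody, and the DRB group had 1 of each after 100 µM of the elongation inhibitor DRB for 3 h. No library is labelled as coming from cells without the vector. Each group is thus a population carrying the tagged METTL14, whose level relative to native METTL14 was not measured here. The files give 1 combined table per group, so no value has an error between replicates, and each interval given is an exact 95% interval for the counting of reads alone.

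METTL14 encodes the RNA-binding partner of METTL3 in the writer complex of N6-methyladenosine (m6A), a mark placed on RNA during transcription. PGK1 encodes phosphoglycerate kinase, an ATP-producing enzyme of glycolysis that is expressed in nearly all cells. Both names also occur in the vector system. A METTL14 cDNA is the spliced coding sequence, so DNA of the cassette carries exons of the gene without introns. Vectors of the PLJM1 type commonly express their puromycin resistance gene from a human PGK1 promoter. Reads of 50 nt from such vector DNA would match the corresponding human sequence, in IP and input alike. Which islands lie over exons, introns or the promoters was not analysed here, because the gene table at hand is for another build (GRCh38.p14), and the part of vector DNA in the values below was not tested.

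The promoters of the genes are shown because a promoter is the stretch of PGK1 that expression vectors use, and because the genes differ in base composition there. They are RefSeq's sequences of 300 bases around each annotated start, both on the plus strand of GRCh38.p14, at chr4:118685142-118685441 for METTL14 and chrX:78103998-78104297 for PGK1. These positions were not converted to hg19, so they were not set against the islands here. Capitals mark matches on either strand to CCAAT (the CCAAT box), GGGCGG (the GC box), CCGGAAG (an ETS-family core), ACGTG (a core shared by E-boxes and hypoxia response elements) and TATAAA (the TATA box); no match overlapped another.
METTL14: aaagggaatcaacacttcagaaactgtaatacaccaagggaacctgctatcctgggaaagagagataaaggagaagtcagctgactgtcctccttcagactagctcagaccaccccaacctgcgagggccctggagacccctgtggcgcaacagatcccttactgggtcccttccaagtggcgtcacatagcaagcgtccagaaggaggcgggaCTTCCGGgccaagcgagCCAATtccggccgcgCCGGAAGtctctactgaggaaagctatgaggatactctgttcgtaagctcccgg
PGK1: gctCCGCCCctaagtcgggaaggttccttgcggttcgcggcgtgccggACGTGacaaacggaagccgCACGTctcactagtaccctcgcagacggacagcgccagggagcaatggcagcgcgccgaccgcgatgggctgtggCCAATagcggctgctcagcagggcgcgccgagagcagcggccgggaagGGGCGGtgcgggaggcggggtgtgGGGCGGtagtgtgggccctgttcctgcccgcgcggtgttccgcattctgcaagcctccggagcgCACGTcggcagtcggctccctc

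Both genes were matched in the promoter table. The PGK1 promoter held 38 CpG dinucleotides and was 70.7% G and C, against medians of 14 and 58.7% over 35116 promoters, and 9.91% of promoters had as many CpG. The METTL14 promoter was near the middle, with 13 CpG and 55.7% G and C. In the PGK1 promoter there were 3 GC boxes, 3 ACGTG cores and 1 CCAAT box. The METTL14 promoter had 2 ETS-family cores and 1 CCAAT box. Of all promoters of this length, 45.0% held a GC box, 21.4% an ACGTG core, 34.6% a CCAAT box, 10.3% the ETS-family core and 11.5% a TATA box. These matches are letters in a window, not measured sites.

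In the text below the fold of an island is its IP count divided by its input count and multiplied by the authors' constant (1.07 for untreated cells, 0.861 for DRB), and an island is significant where the authors' false discovery rate (FDR) was under 1e-04. In untreated cells all 8 islands of the windows were significant, where 5.10% of all candidates were. After DRB 0 of 9 were significant, where 4.76% of all candidates were. Since the windows were chosen on these reads, nothing further is read from the counts. The tables differed in depth, and the part of depth in the counts was not tested: nuclear candidate islands held 14495388 IP and 14661480 input reads untreated, and 1977419 and 1330018 with DRB.

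**Figure D1:**
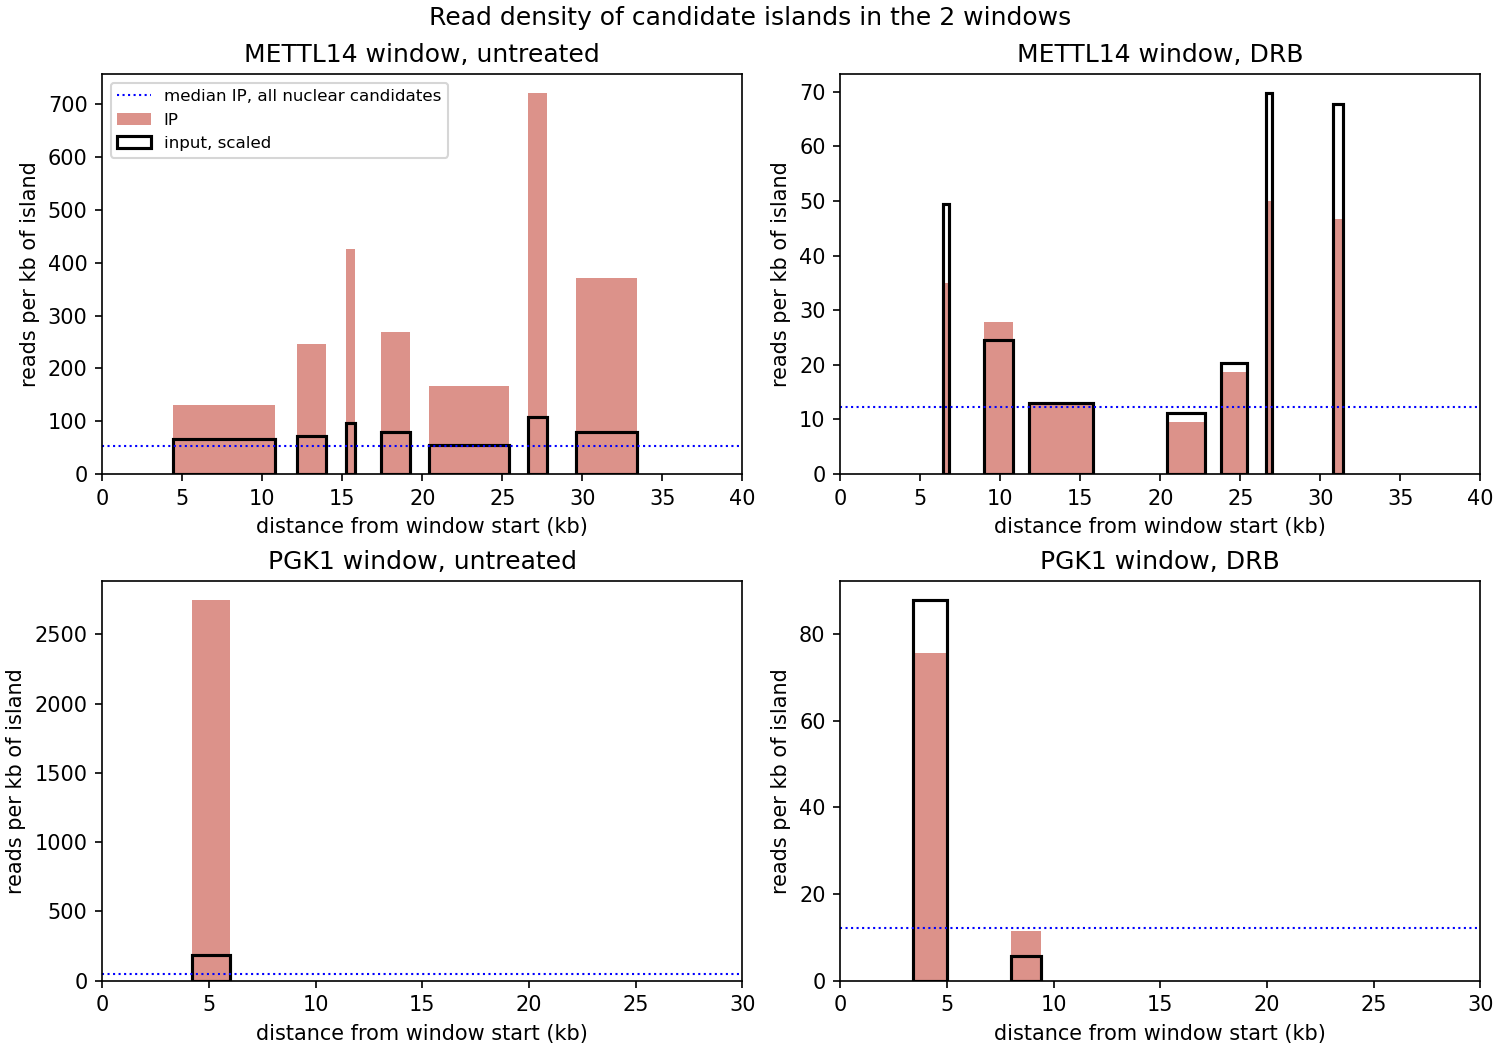
Read density of every candidate island in the METTL14 window (top) and the PGK1 window (bottom), untreated (left) and with DRB (right). The x axis is the distance from the window start in kb, the y axis reads per kb of island; filled bars are IP, outlined bars are input divided by the authors' constant, and the dotted line is the median IP density of all nuclear candidates, with a separate y scale in each panel. Untreated IP bars stand above the input bars in all 8 islands, up to 2746 reads per kb in the PGK1 window, while DRB IP bars lie near or below the input bars except in the second PGK1 island, which has 16 IP and 7 input reads.

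The PGK1 window held a single untreated island, at chrX:77359201-77361000, 1.8 kb wide. Its 4943 IP reads stood against 365 input reads, a fold of 14.5 (13.1 to 16.2), which ranked 1 of 38695 nuclear candidates. Its IP density was 2746 reads per kb, 52.5 times the candidate median and rank 7. Its input density was 203 reads per kb, 3.88 times the candidate median (3.49 to 4.29), rank 138. The island was thus dense in the input as well as in the IP. Among 4860 candidates of similar width (within 1.5 times), 21 had as much input per kb and 0 had as high a fold. The rest of the 30 kb window held no candidate island in untreated cells.

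Few islands lay near PGK1. The nearest untreated candidates on chromosome X were 4194 kb below and 8264 kb above it. The lower one had 117 IP and 83 input reads, a fold of 1.51 (1.13 to 2.03), and the upper one had 120 and 91 reads, a fold of 1.41 (1.07 to 1.88). Their input densities were 0.881 and 0.870 times the candidate median, where that of the PGK1 island was 3.88 times. Chromosome X as a whole had a median of 46.1 input reads per kb over 49 candidates. Its median fold was 1.39, where that of all nuclear candidates was 1.08.

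The METTL14 window held 7 untreated islands between 119604401 and 119633400, a span of 29.0 kb of which 20.6 kb was covered. Together their 5130 IP reads stood against 1577 input reads, a fold of 3.49 (3.30 to 3.70). Gaps of 1.2 to 1.8 kb separated them, so the window was broken into blocks rather than covered as 1 domain. Along the chromosome the first island, at chr4:119604401-119610800, was the widest and shallowest, with 839 IP and 462 input reads and a fold of 1.95 (1.74 to 2.19). The second, at chr4:119612201-119614000, had 442 IP and 138 input reads, a fold of 3.44 (2.83 to 4.19). The third, at chr4:119615201-119615800, was the narrowest at 600 bp and had 256 IP and 62 input reads, a fold of 4.43 (3.35 to 5.95). The intervals of the second and the third overlapped, while the first lay below both.

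The middle of the cluster was lower than its upper end. The fourth island, at chr4:119617401-119619200, had 483 IP and 153 input reads and a fold of 3.39 (2.82 to 4.09). The fifth, at chr4:119620401-119625400, was 5.0 kb wide with 834 IP and 299 input reads and a fold of 2.99 (2.62 to 3.43). The sixth, at chr4:119626601-119627800, was the steepest of the cluster, with 865 IP and 139 input reads and a fold of 6.68 (5.58 to 8.05). The last, at chr4:119629601-119633400, held the most IP reads, 1411 against 324 input reads, for a fold of 4.67 (4.14 to 5.29). Ordered by fold, the islands were the sixth, the last, the third, the second, the fourth, the fifth and the first. The interval of the sixth lay above all others except that of the third, and the interval of the first lay below all others. The third, whose interval was wide, overlapped every island but the first, and the last overlapped the third and, barely, the second. The second, the fourth and the fifth overlapped each other. All 7 ranked between 3 and 147 of 38695 by fold.

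Input density was raised over the METTL14 islands too, by less than at PGK1. It ran from 59.8 reads per kb in the fifth island to 116 in the sixth, 1.14 to 2.21 times the candidate median of 52.3, and was 1.46 times it over the cluster (1.39 to 1.54). All 7 islands were above that median. Against candidates of similar width the ratio was 0.996 to 1.80. The lowest value was that of the third island, since narrow islands are dense in general: 92 of 184 candidates of its width had as much input per kb.

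Within the cluster the islands with more IP reads per kb were those with more input reads per kb. IP density differed 5.50-fold between islands (131 to 721 reads per kb) and input density 1.94-fold. Spearman's rho between the IP and input densities was 0.964 over the 7 islands, and rho between fold and input density was 0.893. The sixth and the third islands were the highest in both densities, and the first and the fifth the lowest in both. Both densities share the island's width as denominator and the islands share their libraries, so the correlations describe this cluster only.

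Outside the window the folds were near 1. The nearest untreated candidate above the cluster lay 45.0 kb away, at chr4:119678401-119681400, with 155 IP and 161 input reads and a fold of 1.03 (0.823 to 1.30). The nearest below lay 399.6 kb away with 583 IP and 552 input reads and a fold of 1.13 (1.01 to 1.28). Neither was significant. Of 93 other untreated candidates within 5 Mb, 6 were significant, the highest fold was 1.71, the median fold 1.09 and the median input density 47.6 reads per kb. The lowest fold of the 7 METTL14 islands, 1.95, was above all of these.

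**Figure D2:**
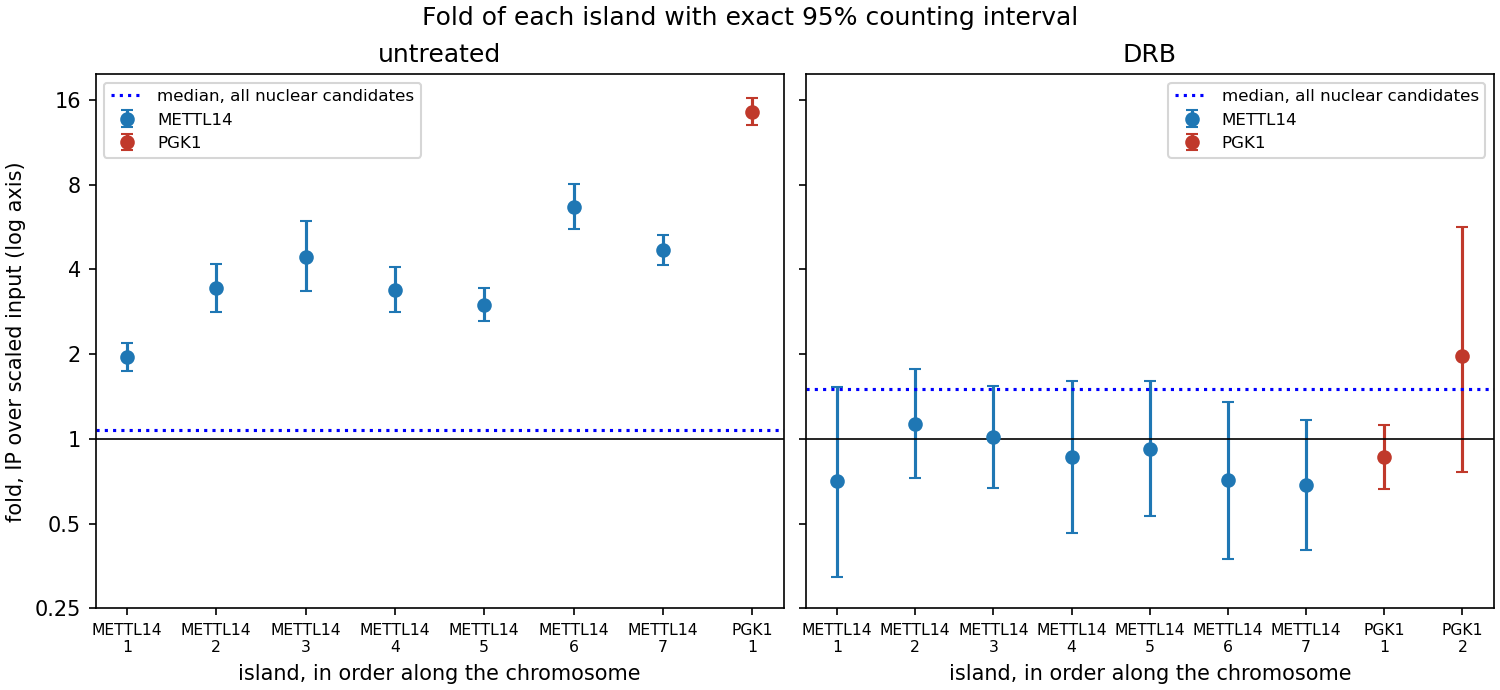
Fold of each island (IP over scaled input, log axis) in order along the chromosome, untreated (left) and with DRB (right). Points are islands, bars exact 95% counting intervals, the solid line a fold of 1 and the dotted line the median of all nuclear candidates (1.08 untreated, 1.51 with DRB). The untreated points run from 1.95 to 14.5, and 8 of the 9 DRB points lie between 0.689 and 1.13.

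With DRB the PGK1 window held 2 candidate islands. The first, at chrX:77358401-77360000, shared 800 bp with the untreated island. It held 121 reads in the IP and 121 in the input, a fold of 0.861 (0.663 to 1.12). At the untreated fold, 121 input reads would go with 2043 IP reads, where 121 were found. Its input density, 75.6 reads per kb, was 10.8 times the DRB candidate median (8.96 to 12.9), and its IP density, also 75.6, was 6.19 times the median. The second island, at chrX:77363001-77364400, had no untreated counterpart and rested on 16 IP and 7 input reads, a fold of 1.97 (0.766 to 5.65) at an FDR of 0.0126 in the authors' deposited table. Its input density was 0.714 times the median, unlike that of its neighbour. The median fold over the 111 DRB candidates of chromosome X was 2.11.

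The METTL14 window held 7 DRB islands between 119606401 and 119631400, which covered 11.2 kb and had 218 IP reads and 210 input reads in all. The fold of this sum was 0.893 (0.736 to 1.09). From low to high position, the IP and input reads were 14 and 17 in the first island (chr4:119606401-119606800), 50 and 38 in the second (chr4:119609001-119610800), and 53 and 45 in the third (chr4:119611801-119615800). They were 23 and 23 in the fourth (chr4:119620401-119622800) and 30 and 28 in the fifth (chr4:119623801-119625400). The sixth (chr4:119626601-119627000) had 20 and 24, and the last (chr4:119630801-119631400) had 28 and 35. The folds ran from 0.689 to 1.13, every interval included 1, and all 7 folds were below the DRB candidate median of 1.51. The sixth and last DRB islands, inside the untreated islands of highest and second highest fold in the cluster, had DRB folds of 0.717 (0.376 to 1.35) and 0.689 (0.404 to 1.17).

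The DRB input was also dense in most DRB islands of this window. The interval of the fourth, at 1.37 times the DRB median, included 1 (0.868 to 2.05). Input density was 1.37 to 8.57 times the DRB median in the 7 METTL14 islands, with the highest values in the sixth (60.0 reads per kb), the last (58.3) and the first (42.5). Against DRB candidates of similar width it was 1.53 to 6.0 times their median. IP density was 9.58 to 50.0 reads per kb, and the IP and input densities put the 7 islands in the same order (Spearman's rho 1.00). Both densities share the island's width as denominator, so a common order is partly built in. Widths ran from 400 to 4000 bp, where input reads ran from 17 to 45 and IP reads from 14 to 53. With DRB no island had a fold interval above 1.

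Input is the denominator of the fold, so a lower fold at denser input is partly built in. DRB candidates with an input density within 1.5 times that of the second PGK1 island (5.0 reads per kb) had a median fold of 1.72. Around the fourth METTL14 island (9.58 reads per kb) the median was 1.31. The members were therefore also set beside candidates of like input density, by the same factor. Around the first PGK1 island, 82 other DRB candidates had a median fold of 0.861 (quartiles 0.736 and 1.03), the same as the island's own 0.861. For the sixth and last METTL14 islands the medians were 0.876 over 126 and 0.877 over 127 candidates, and their folds of 0.717 and 0.689 lay between the quartiles of those sets. The second METTL14 island, with 1.13, was also between its quartiles, as was the fifth, with 0.922, while the third, the fourth and the first, with 1.01, 0.861 and 0.709, were below theirs. In untreated cells the same comparison gave a different picture. The PGK1 fold of 14.5 stood beside a median of 1.05 and a highest value of 3.87 over 93 candidates of like input, and the sixth METTL14 island, with 6.68, beside 1.01 and 4.77 over 1356. The other 6 METTL14 islands were reached by some candidates of like input: the first by 50 of 25465, the fifth by 5 of 35680, and the second, the third, the fourth and the last by 2 each, of 3727 to 20918.

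**Figure D3:**
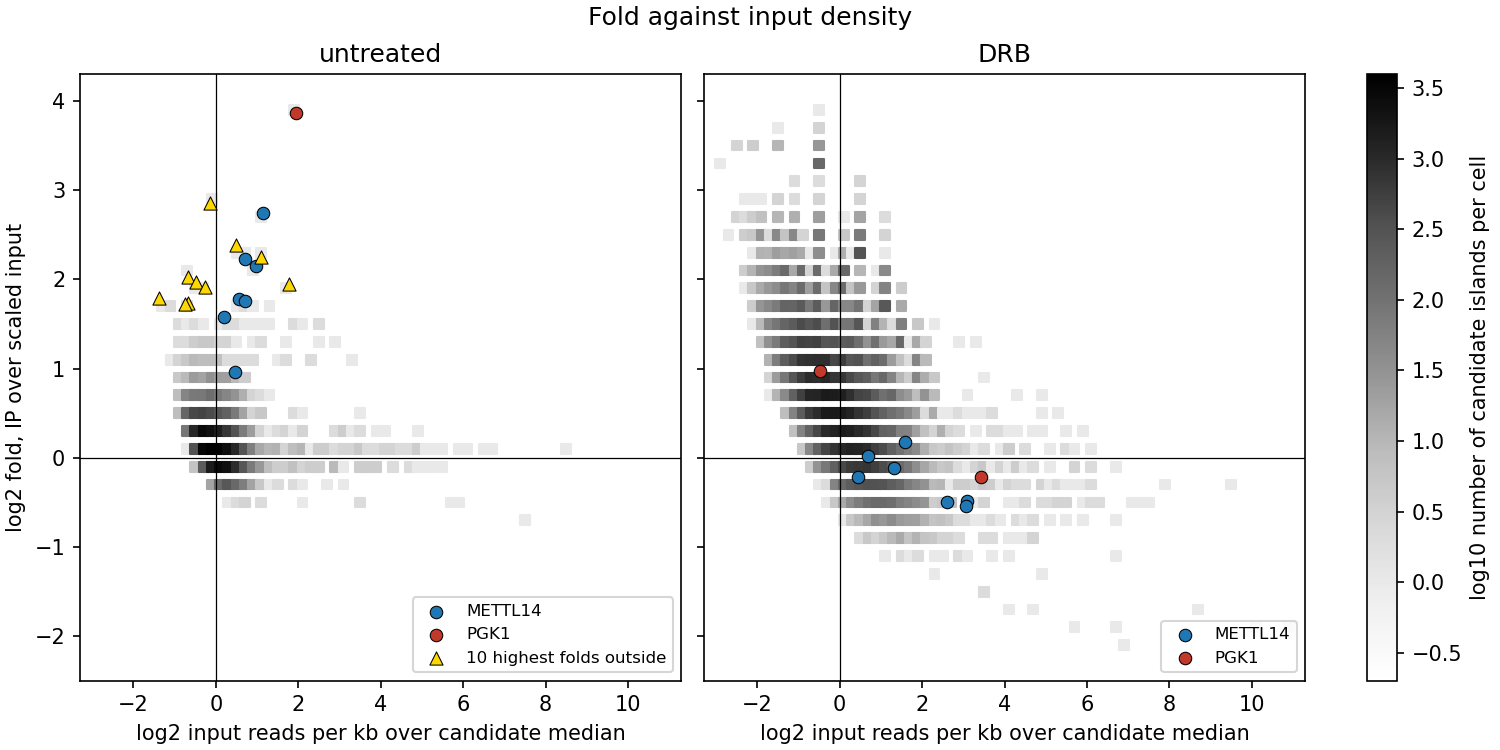
Fold (log2, IP over scaled input) against input reads per kb relative to the candidate median (log2), untreated (left) and with DRB (right). Grey squares are counts of all nuclear candidates with input reads (log10 scale), blue and red points the METTL14 and PGK1 islands, and gold triangles the 10 highest untreated folds outside the windows; 6 DRB islands with 0 input reads are not drawn. The untreated members lie above most candidates and to the right of the median, the fifth METTL14 island only slightly (1.14 times the median input), and 8 of the 9 DRB members lie to the right at a log2 fold near or below 0.

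The fold with DRB was 0.256 times the untreated fold in the METTL14 window (0.209 to 0.314) and 0.0634 times in the PGK1 window (0.0483 to 0.0833). The islands were called separately and differ in extent: 9.6 kb was shared in the METTL14 window, 46.6% of the untreated and 85.7% of the DRB coverage, and 0.8 kb in the PGK1 window, 44.4% and 26.7%. With 1 DRB library of each kind, the treatment and the library cannot be told apart. For single untreated islands the ratio was lowest at PGK1, 0.0592 (0.0447 to 0.0787), and in the METTL14 cluster ran from 0.107 (0.0548 to 0.210) in the sixth island to 0.514 (0.346 to 0.765) in the first. No DRB candidate lay over the fourth METTL14 island. The second and the third untreated islands lay under a single DRB island, so their ratios share its reads.

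The windows can also be set against each other within a library, where the scaling cancels. In the untreated IP the PGK1 island had 11.0 times (10.6 to 11.5) the reads per kb of the METTL14 islands, and in the untreated input 2.65 times (2.36 to 2.97). With DRB the ratio of the first PGK1 island to the METTL14 islands was 3.89 (3.09 to 4.87) in the IP and 4.03 (3.20 to 5.07) in the input. The DRB IP and input thus gave ratios that differed by less than counting error, and the untreated IP did not match its input.

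The 10 highest untreated folds outside the windows gave a comparison with other steep islands. Their folds were 3.30 to 7.23, from 55 to 520 IP reads, against 256 to 4943 IP reads in the 8 islands of the windows. Input density was above the candidate median in 3 of these 10, with a range of 0.382 to 3.44 times the median, and in 8 of 8 islands of the windows. A DRB candidate lay over 3 of the 10 and over 7 of the 8. The 10 were 400 to 1600 bp wide and the 8 were 600 to 6400 bp, and overlap depends on width. The share of all untreated candidates under a DRB candidate was not computed, so nothing is read from these overlap counts. Among the 10, those with both were at chr13:46948401-46948800 (2.15 times the median input untreated, DRB fold 0.828, 0.458 to 1.49) and chr10:103124001-103124800 (3.44 times, DRB fold 0.580, 0.356 to 0.935). These differences between the sets were not tested, since both were chosen on the untreated reads.

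In untreated cells the windows held a larger part of the called signal than of the significant islands by number. The windows were chosen on these reads, so these shares are a description only. IP reads in excess of the scaled input came to 4603 in the PGK1 island and 3660 in the METTL14 islands, 2.08% and 1.65% of the excess over all 1973 significant islands. The 8 islands were 0.0507% (PGK1) and 0.355% (METTL14) of those islands by number. With DRB the IP reads minus the scaled input came to -11.7 in the PGK1 window and -26.0 in the METTL14 window.

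Bowtie's handling of reads with several matches is not given in the sources used here. RefSeq names 2 pseudogenes of PGK1, PGK1P1 on chromosome X and PGK1P2 on chromosome 19, and a divergent transcript, METTL14-DT, beside METTL14. How reads were shared between PGK1 and its pseudogenes was not tested, nor were the islands assigned to METTL14 or METTL14-DT.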

How the data were processed

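Anti-HA ChIP-seq of HepG2 cells carrying tagged METTL14 was deposited as a candidate island table and a significant island list for each condition. Bowtie 1.1.2, FastQC 0.11.5, SICER and hg19 are named in the submitters' processing notes. Not given in the sources used here are SICER's settings and how the untreated replicates were combined. The files have no headers. The deposited IP and input counts are raw reads per island, the deposited ratio (fold) is IP over input times 1 constant, and the authors' p-value and FDR were copied, not recomputed; islands with an FDR under 1e-04 were the significant lists exactly. Positions are 1-based.

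Islands were taken by overlap of at least 1 bp with the windows. The windows, the comparisons and the alternatives were chosen with earlier results of these data known. Every member was named; other islands were named where they were the nearest neighbours of a window or among the 10 highest untreated folds outside. Densities are reads per kb over the median of nuclear candidates. Fold intervals are Clopper-Pearson, density intervals Poisson, and ratios of folds exact conditional intervals, at 95%. Their coverage was tested on simulated Poisson counts alone. That simulation had no spread between libraries and did not go down to the smallest DRB counts. Planned exon overlaps and lists of m6A and glycolysis genes were not run for want of an hg19 annotation here. An exact binomial test with Benjamini-Hochberg adjustment over all candidates was an alternative to the authors' call. SciPy 1.17.1, pandas 2.3.3, numpy 2.4.6 and matplotlib 3.10.9 were used under Python 3.11.15.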

Additional observations from a re-analysis of the deposited data

Results flagged for a closer look

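The fold of the METTL14 window was 3.49 untreated and 0.893 (0.736 to 1.09) with DRB, and that of the PGK1 window was 14.5 untreated and 0.921 (0.719 to 1.18) with DRB. Both were singled out because the summed islands lay on opposite sides of a fold of 1 in the conditions. Both DRB intervals included 1 at the authors' constant, so the side is not settled there. They cover the counting of reads and not the choice of scaling. With input scaled over all nuclear islands the DRB folds were 0.698 (METTL14) and 0.720 (PGK1), for which no interval was computed. The difference was not tested, each condition being 1 table.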

How the results depend on the processing

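No paired analysis was possible because the deposited tables combine the untreated replicates and DRB has 1 library of each kind, so no replicate could be left out either. The counts of 8 significant untreated and 0 significant DRB islands were the same by the exact binomial test. They were also the same at a 10 times lower FDR, which could not have changed them. The DRB count was already 0, and the highest untreated FDR was 3.78e-65. Extending the windows by 50 kb did not change the counts either, but no candidate lay that close to the PGK1 window (nearest 405 kb, with DRB). The ratio of DRB to untreated fold stayed inside its interval under the alternatives that were run, but some could not move it. Taking significant untreated islands only repeated the main value, since all 8 were significant. So did taking untreated islands over a DRB island at PGK1. Scaling over islands of at least 10 kb gave 0.271 (METTL14) and 0.0671 (PGK1). Islands that overlap between the tables only, a setting added after seeing the data, gave 0.255 and 0.0592. Scaling over all nuclear islands was not run for the ratio. With input scaled over all nuclear islands, the METTL14 fold was 3.29 untreated and 0.698 with DRB. With scaling over islands of at least 10 kb, the share of the untreated excess was 1.83% (METTL14) and 2.32% (PGK1). Relative to candidates within 5 Mb, input density was 1.61 times the median at METTL14 and 4.40 times at PGK1 untreated, where 1 other candidate lay, and 9.19 times at PGK1 with DRB, where 2 lay. Relative to the same chromosome, input density was 4.40 times (PGK1, untreated) and 3.07 times (METTL14, DRB), and IP density 39.2 times (PGK1, untreated) and 2.44 times (PGK1, DRB). Relative to islands of the same width, input density was 3.41 times (PGK1, untreated), and IP density 4.46 times (METTL14) and 43.0 times (PGK1) untreated. None of these changed direction. DRB islands in the windows held 7 to 121 input reads, so the counting intervals of single folds there are wide.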
